A study of Homo sapiens with 6 samples.

Results

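The endoplasmic reticulum (ER) unfolded protein response was followed through 10 of its genes, HSPA5, HSP90B1, CALR, PDIA4, SDF2L1, DNAJB9, HERPUD1, EDEM1, XBP1 and ERN1, out of 33007 genes in the deposited table. They were chosen by name as folding chaperones, degradation factors and the IRE1 branch of the response, and each symbol matched 1 gene. RNA-seq was performed in LM3, an established human hepatocellular carcinoma (HCC) cell line, with 3 vector control samples and 3 samples with stable knockdown of ZNF706, a zinc finger protein. All 6 samples carry the genotype label WT, and the knockdown lines were made with a lentiviral short hairpin RNA vector (pLKO.1-shZNF706) followed by puromycin selection. Which hairpin was sequenced, whether a line was a pool or 1 clone, and whether the samples were separate cultures were not stated in the sources used here, so the p-values measure only the spread between these samples, which may be technical.

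The ER folds secreted and membrane proteins with the help of chaperones such as HSPA5, also called BiP. When unfolded proteins accumulate, the membrane sensors IRE1 (encoded by ERN1), PERK (EIF2AK3) and ATF6 are activated. IRE1 splices the mRNA of XBP1 into the form that encodes an active transcription factor, ATF6 is cut to release another, and PERK phosphorylates the initiation factor eIF2α, which favors translation of ATF4. The factors of the response raise transcription of chaperones and of genes for ER-associated degradation, in part through short promoter sequences called ER stress response elements. Hepatocytes secrete most plasma proteins and carry an extensive ER, in which the response adjusts folding capacity.

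In the ZNF706 knockdown samples, HERPUD1, XBP1, HSPA5, HSP90B1 and EDEM1 fell, none of the 10 genes rose, and 5 did not pass the test. A gene was called at an adjusted p below 0.05 (edgeR's quasi-likelihood test, adjusted by Benjamini-Hochberg over 18390 tested genes), and all 10 genes passed the filter on low counts. EDEM1 kept its call in 5 of 15 other fits, made with another tool, scaling, filter or model term or without 1 sample. The 5 of 10 genes called lower compare with 12.4% of all tested genes called lower, 10.4% called higher and 22.8% called in either direction. With scaling by library size alone, the calls over all genes were 1518 lower and 2742 higher, against 2286 lower and 1906 higher with the TMM scaling used here. Without knockdown sample 2 they were 1500 lower and 1148 higher, and 4 of the 10 genes were lower. The median log2 fold change was -0.18 over the 10 genes and 0.0095 over all tested genes. In 6 of the 10 genes, all knockdown samples were below all control samples, and none had all of them above, compared with 19.7% of all tested genes in each direction and 39.4% in either. HERPUD1 changed most, by 45.3%, and the HSPA5 and HSP90B1 changes were of smaller size in genes of far higher level. Levels are given below as CPM, the read count scaled by library size with TMM factors. A bulk measurement cannot tell fewer cells that express a gene from less RNA per cell.

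**Figure D1:**
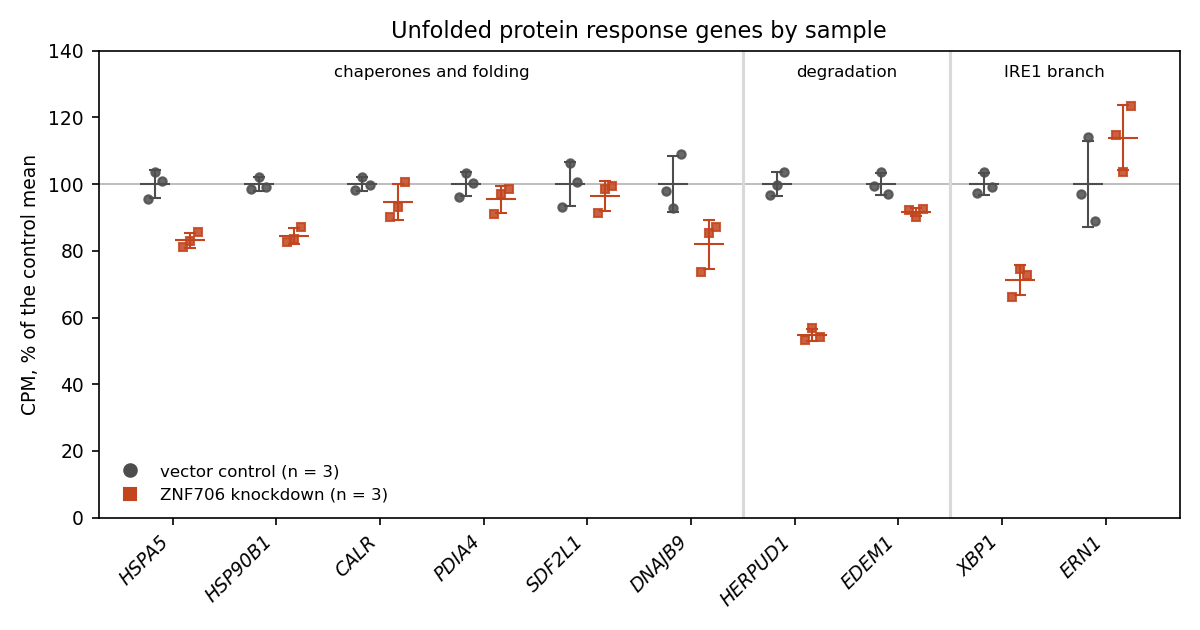
Counts scaled by library size (CPM) of the 10 genes in each sample, as % of the mean of the 3 vector control samples, grouped by role. Points are samples, horizontal marks are means and error bars are SD (n = 3 per group). The 3 knockdown samples of HSPA5, HSP90B1, DNAJB9, HERPUD1, EDEM1 and XBP1 lie below the 3 control samples, and the samples of the other 4 genes overlap.

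The promoters of these genes are shown because several of the 10 genes fell, and whether a promoter element had a part in this was not tested. Of the short elements through which the response is known to act in part, 2 were searched for here and no others. These are ERSE, the letters CCAAT and CCACG with 9 bases between them, and ERSE-II, the letters ATTGG and CCACG with 1 base between them, both searched on both strands of RefSeq windows (GRCh38.p14) from 250 bases before to 50 bases after each gene start. The elements share the CCACG letters and the CCAAT letters, which ERSE-II carries as their reverse complement ATTGG, but no window held both. All 10 genes had a window. An ERSE stood in the windows of 4 genes and an ERSE-II in those of 2, while among all 35116 windows 0.0769% held an ERSE and 0.0541% an ERSE-II. The 10 genes had 12 windows and were chosen by name as genes of this response. The shares over all windows are therefore background, and no enrichment can be read from them. The stretches follow in the direction of transcription, with the letters of the element in capitals. A stretch with capitals that begin with CGTGG has the element on the opposite strand.
HSPA5: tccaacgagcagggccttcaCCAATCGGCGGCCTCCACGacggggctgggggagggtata
HSP90B1, distal element: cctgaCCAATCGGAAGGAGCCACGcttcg
HSP90B1, proximal element: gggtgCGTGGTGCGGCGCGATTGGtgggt
CALR: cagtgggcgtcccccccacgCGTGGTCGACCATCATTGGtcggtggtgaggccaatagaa
XBP1: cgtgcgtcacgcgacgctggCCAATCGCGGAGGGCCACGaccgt
HERPUD1: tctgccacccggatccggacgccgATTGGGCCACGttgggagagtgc
SDF2L1: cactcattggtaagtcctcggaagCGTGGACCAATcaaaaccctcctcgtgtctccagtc

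The HSPA5 stretch is chr9:125241370-125241429 on the minus strand, and that of XBP1 is chr22:28800598-28800641 on the minus strand. The others are on the plus strand. They are chr12:103930211-103930239 and chr12:103930316-103930344 for HSP90B1, chr19:12938364-12938423 for CALR, chr16:56932001-56932047 for HERPUD1 and chr22:21642090-21642149 for SDF2L1. All lie before the RefSeq start of their gene. Both HSP90B1 elements also fall within an HSP90B1 exon annotated in GENCODE release 29, and the other 5 elements are in no annotated exon. Of the 6 genes with an element, HSPA5, HSP90B1, XBP1 and HERPUD1 fell, whereas CALR and SDF2L1 did not pass the test. The windows of the other 4 genes held neither element with its full spacing. The letters CCAAT occurred in all of them, and CCACG in those of EDEM1, DNAJB9 and PDIA4 but not of ERN1. How often such short letters occur over all windows was not counted. Of these 4 genes, EDEM1 fell, with its call kept in 5 of 15 other fits, and PDIA4, DNAJB9 and ERN1 did not pass. Outside the 10 genes, 24 tested genes had either element in a window, of which 4 were lower and 4 higher (16.7% each, against 12.4% lower and 10.4% higher among all tested genes), with a median log2 fold change of -0.0098. A match is a description of letters and not evidence of a bound site.

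**Figure D2:**
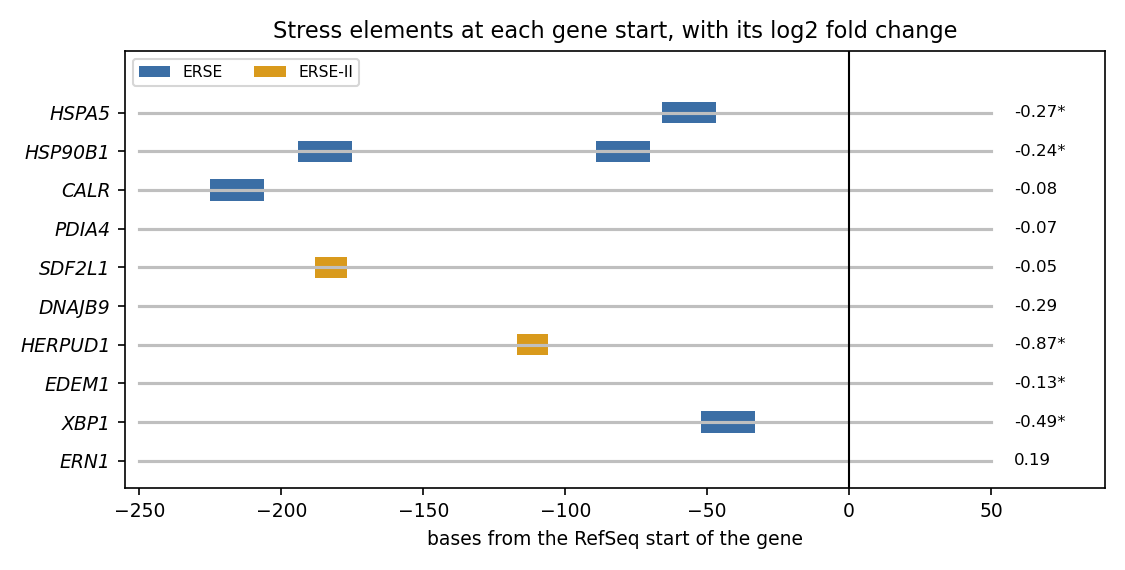
Positions of ERSE (blue) and ERSE-II (orange) matches in the window of each gene, in bases from the RefSeq start, with the log2 fold change (knockdown against control) at the right and an asterisk where the adjusted p was below 0.05. Elements lie between positions -225 and -34 in 6 of the 10 genes, and 4 of these 6 genes carry an asterisk.

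To check the labels, the targeted gene ZNF706 (ENSG00000120963) was first read in every sample. It lies on the minus strand of chromosome 8 from 101177878 to 101205682 and was at 51.9, 55.1 and 54.7 CPM in control samples 1 to 3 and at 33.5, 30.8 and 32.8 CPM in knockdown samples 1 to 3. It fell by 0.73 on the log2 scale (SE 0.050, edgeR adjusted p = 3.7e-05), a reduction of 39.9% in transcript level, and the groups did not overlap.

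Among the chaperones, HSPA5 (ENSG00000044574, chromosome 9, 125234853 to 125241343, minus strand) encodes the ER member of the HSP70 family, which binds unfolded chains and holds the sensors inactive. Its level was 2408, 2611 and 2545 CPM in the control samples and 2043, 2089 and 2159 CPM in the knockdown samples. All knockdown samples were below all control samples, with means of 2521 ± 104 and 2097 ± 58.2 CPM (SD, n = 3 each). The log2 fold change was -0.27 (SE 0.034, 95% interval -0.34 to -0.19, edgeR adjusted p = 0.00067), and it was between -0.30 and -0.24 when any 1 sample was left out.

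HSP90B1 (ENSG00000166598, chromosome 12, 103930107 to 103947927, plus strand) encodes GRP94, the HSP90 chaperone of the ER. The control samples were at 2176, 2259 and 2191 CPM and the knockdown samples at 1826, 1847 and 1927 CPM. The groups did not overlap, with means of 2209 ± 44.3 and 1866 ± 53.5 CPM (SD, n = 3 each), and the spread within each group was under 3% of its mean. HSP90B1 fell by 0.24 on the log2 scale (SE 0.029, 95% interval -0.31 to -0.18, edgeR adjusted p = 0.00044). With a GC offset the value was -0.15 and still passed the test (edgeR adjusted p = 0.011). The opposite-strand gene C12orf73, which overlaps HSP90B1, held counts equal to 0.629% of those of HSP90B1.

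CALR (ENSG00000179218, chromosome 19, 12938578 to 12944489, plus strand) encodes calreticulin, a lectin chaperone that binds glycoproteins. It was at 1277, 1330 and 1298 CPM in the control samples and at 1174, 1213 and 1311 CPM in the knockdown samples. Knockdown samples 1 and 2 were below the controls, and knockdown sample 3 lay among them. The log2 fold change of -0.08 (SE 0.040, 95% interval -0.17 to 0.011) did not pass the test (edgeR adjusted p = 0.20). It was -0.025 with scaling by library size alone and -0.032 with limma on FPKM, and neither passed. Without knockdown sample 3 it was -0.12 and passed (edgeR adjusted p = 0.0227), and without knockdown sample 1 it was -0.044 and did not (edgeR adjusted p = 0.505).

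PDIA4 (ENSG00000155660, chromosome 7, 149003062 to 149028662, minus strand) encodes ERp72, a disulfide isomerase. Its values were 385, 414 and 402 CPM in the control samples and 364, 388 and 395 CPM in the knockdown samples. The groups overlapped, and the log2 fold change of -0.07 (SE 0.041, 95% interval -0.16 to 0.024) did not pass the test (edgeR adjusted p = 0.29). It was -0.032 without knockdown sample 1, -0.044 without control sample 2 and -0.013 with scaling by library size alone, none of which passed.

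SDF2L1 (ENSG00000128228, chromosome 22, 21642302 to 21644299, plus strand) encodes a partner of ER J-domain proteins. Its values were 29.1, 33.3 and 31.6 CPM in the control samples and 28.6, 30.9 and 31.2 CPM in the knockdown samples. The overlapping groups differed by -0.05 on the log2 scale (SE 0.068, 95% interval -0.20 to 0.10, edgeR adjusted p = 0.64), and the sign changed with scaling by library size alone (0.0015). The value was -0.15 with the GC offset, -0.11 without control sample 1, -0.0081 without control sample 2 and -0.014 without knockdown sample 1, and none of these passed.

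DNAJB9 (ENSG00000128590, chromosome 7, 108569867 to 108574850, plus strand) encodes ERdj4, a J-domain cochaperone that recruits HSPA5 to IRE1. It was at 12.65, 12.02 and 14.1 CPM in the control samples and at 9.51, 11.03 and 11.3 CPM in the knockdown samples. All knockdown samples were below all control samples, but the difference of -0.29 on the log2 scale (SE 0.10, 95% interval -0.52 to -0.053) did not pass the test (edgeR adjusted p = 0.078). With the GC offset it was -0.18. This low-level gene had a larger spread, with SDs of 8.29% and 8.93% of the mean in the control and knockdown groups.

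In the degradation group, HERPUD1 (ENSG00000051108, chromosome 16, 56932142 to 56944864, plus strand) encodes HERP, a membrane protein that assembles the ubiquitin ligase complex for misfolded proteins. The control samples were at 85.1, 87.8 and 91.2 CPM and the knockdown samples at 46.8, 50.02 and 47.7 CPM. The means were 88.0 ± 3.09 and 48.2 ± 1.65 CPM (SD, n = 3 each), a gap many times the spread of either group. HERPUD1 fell by 0.87 on the log2 scale (SE 0.042, 95% interval -0.96 to -0.77, edgeR adjusted p = 1.3e-05), or by 45.3%. When any 1 sample was left out, the value stayed between -0.90 and -0.85. A pair of genes on the same strand overlap HERPUD1, with counts equal to 0.59% and 1.07% of its counts.

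EDEM1 (ENSG00000134109, chromosome 3, 5187646 to 5219958, plus strand) encodes a mannosidase-like protein that directs misfolded glycoproteins to degradation. It was at 127, 133 and 125 CPM in the control samples and at 118, 116 and 119 CPM in the knockdown samples. The groups did not overlap, and EDEM1 fell by 0.13 on the log2 scale (SE 0.036, 95% interval -0.21 to -0.044, edgeR adjusted p = 0.033). The call was lost without control sample 1 (edgeR adjusted p = 0.0611), control sample 2 (0.113), knockdown sample 1 (0.0615), knockdown sample 2 (0.134) or knockdown sample 3 (0.0574), and EDEM1 was called in 5 of 15 other fits.

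In the IRE1 branch, XBP1 (ENSG00000100219, chromosome 22, 28794555 to 28800597, minus strand) encodes the transcription factor made from the spliced mRNA. The control samples were at 102, 109 and 104 CPM and the knockdown samples at 69.4, 78.2 and 76.4 CPM. Every knockdown sample was below every control sample, with means of 105 ± 3.56 and 74.7 ± 4.67 CPM (SD, n = 3 each). XBP1 fell by 0.49 on the log2 scale (SE 0.050, 95% interval -0.60 to -0.38, edgeR adjusted p = 0.000204), or by 28.9%. Gene counts do not separate spliced from unspliced XBP1 mRNA, so IRE1 activity was not measured.

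ERN1 (ENSG00000178607, chromosome 17, 64039142 to 64130819, minus strand), which encodes IRE1 itself, was the only one of the 10 genes with a positive log2 fold change. Its values were 5.99, 7.05 and 5.49 CPM in the control samples and 7.09, 6.41 and 7.62 CPM in the knockdown samples. The groups overlapped, and the difference of 0.19 on the log2 scale (SE 0.13, 95% interval -0.10 to 0.48) did not pass the test (edgeR adjusted p = 0.35). It was 0.11 without control sample 3 and 0.29 without control sample 2, and neither passed. The counts behind these values were between 337 and 533 per sample.

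**Figure D3:**
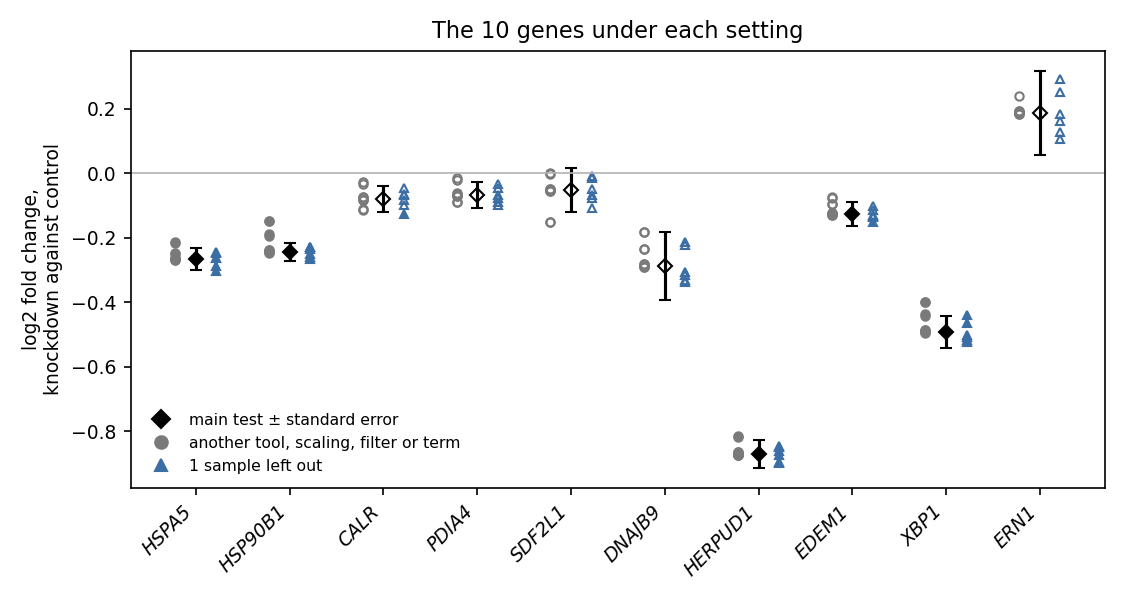
Log2 fold change of each gene (knockdown against control) in the edgeR test (black diamond ± standard error), with another tool, scaling, filter or model term (gray circles) and with 1 sample left out (blue triangles). Filled symbols mark an adjusted p below 0.05. HSPA5, HSP90B1, HERPUD1 and XBP1 are filled throughout, EDEM1 is filled in 5 of 15 fits besides the edgeR test, and CALR in 1 of 15.

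HERPUD1, XBP1, HSPA5 and HSP90B1 passed in all 15 other fits, and DNAJB9, PDIA4, SDF2L1 and ERN1 passed in none of theirs (15 each, and 14 for ERN1). The study's criteria, taken as an unadjusted p below 0.05 with a log2 fold change of 0.3 or more in either direction and applied here to the edgeR fit, counted HERPUD1 and XBP1 lower and none of the 10 genes higher, compared with 5.88% lower and 9.61% higher among all tested genes.

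Levels were compared between genes on the FPKM scale, which divides the reads by gene length and library size. In the control samples HSPA5 was the highest at 555 ± 20.1 FPKM (SD, n = 3), ranking 37 of all genes by mean FPKM over the 6 samples. CALR (414 ± 7.83 FPKM) and HSP90B1 (406 ± 8.39 FPKM) followed, and their control samples overlapped. The remaining order was PDIA4 at 105, XBP1 at 29.9, SDF2L1 at 25.5, EDEM1 at 16.4, HERPUD1 at 14.98, DNAJB9 at 4.39 and ERN1 at 0.487 FPKM, with no overlap between neighbors. In the knockdown samples, XBP1 (21.98 ± 1.38 FPKM) stood below SDF2L1 (25.4 ± 1.17 FPKM), again without overlap, and no other pair changed places. ERN1 was the lowest of the 10 genes in both groups.

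**Figure D4:**
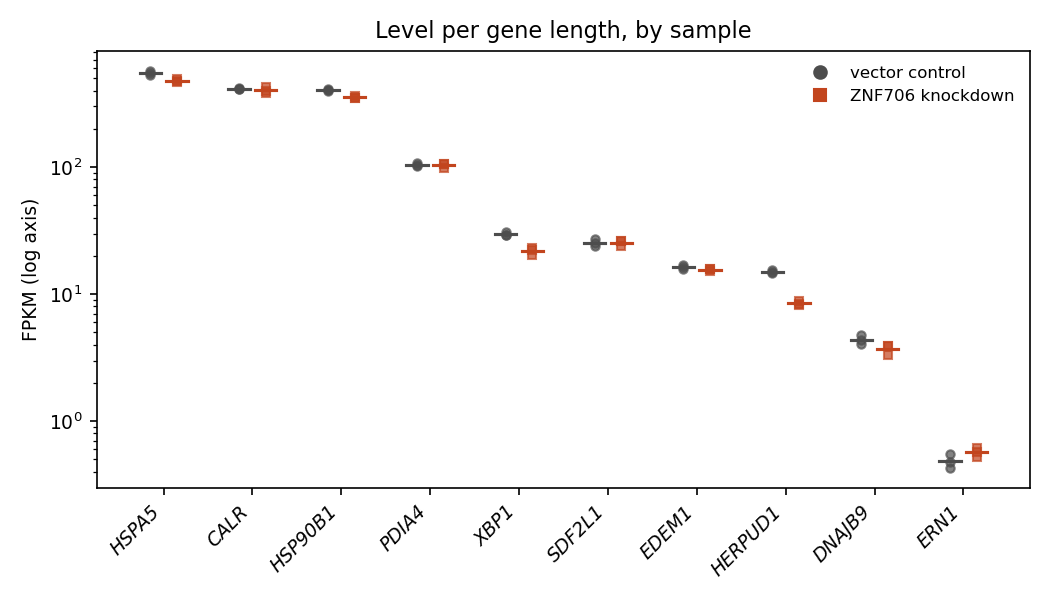
FPKM of the 10 genes in each sample on a log axis, in the order of the control means, with points for samples and bars for group means (n = 3 per group). HSPA5, CALR and HSP90B1 stand above 350 FPKM in the means of both groups, and ERN1 is below 1 FPKM.

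The summed level of the 10 genes was 6609, 6996 and 6807 CPM in the control samples and 5687, 5829 and 6085 CPM in the knockdown samples. All knockdown samples were below all control samples. HSPA5 and HSP90B1 made up 45.2% and 36.5% of the difference of the means, and the sum therefore says little of the genes at lower level. Within each group the same samples tended to be low or high across the genes. Knockdown sample 1 was the lowest of its group for 8 of the 10 genes and knockdown sample 3 the highest for 8, while control sample 1 was the lowest of its group for 7 and control sample 2 the highest for 8. Total counts were between 62684076 and 64713764 in the control samples and between 65861994 and 69057423 in the knockdown samples. Every knockdown sample was thus deeper than every control sample. The TMM factors were also separate, between 0.974 and 0.988 in the control samples and between 1.014 and 1.024 in the knockdown samples. The share of counts from mitochondrial genes was 5.40%, 5.19% and 5.40% in the controls and lower, at 5.03%, 5.02% and 4.79%, in the knockdown samples. The part of these differences between the groups in the result was not tested.

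The other genes of the pathway were read from 5 lists with 144 genes, all of which passed the filter on low counts. Of these, 44 were lower (30.6%) and 14 higher (9.72%), compared with 12.4% lower and 10.4% higher among all tested genes, and the median log2 fold change was -0.07. The share of higher genes was thus near that of all genes. Each of the 5 lists held called genes of both directions.

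Among 15 sensors and transcription factors, 4 were lower (26.7%, against 12.4% of all tested genes) and 2 higher (13.3%, against 10.4%), with a median log2 fold change of -0.04. The split was 3 and 3 with library size alone or limma. EIF2AK3, which encodes PERK, was at 33.6, 33.5 and 38.3 CPM in the control samples and at 25.6, 25.8 and 26.1 CPM in the knockdown samples. It fell by 0.44 on the log2 scale (SE 0.067, edgeR adjusted p = 0.0015), without overlap of the groups. ATF6 was at 93.2 ± 0.888 and 85.8 ± 4.92 CPM (SD, n = 3 each), and its log2 fold change of -0.12 did not pass the test (edgeR adjusted p = 0.082), except when knockdown sample 1 was left out (-0.17, edgeR adjusted p = 0.0173). As background, the ERSE is bound by ATF6 together with NF-Y. The NF-Y subunit genes NFYA (-0.25, edgeR adjusted p = 0.0028) and NFYB (-0.24, edgeR adjusted p = 0.028) and the cofactor YY1 (-0.17, edgeR adjusted p = 0.0052) fell. Whether the level of NFYA, NFYB or YY1 had a part in the changes of the 10 genes was not tested. The gene of the remaining NF-Y subunit, NFYC, named here after its value was seen, was at 0.07 and did not pass the test (edgeR adjusted p = 0.45). The NFYB call was lost in 11 of 16 alternatives. These were the GC offset alone (-0.11) or with the replicate block (-0.12), scaling by library size alone, no filter, limma on FPKM, the study's criteria, and leaving out any of control samples 1, 2 and 3 or knockdown samples 1 and 2 (edgeR adjusted p between 0.0548 and 0.114).

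CREB3L1, which encodes an ATF6-related factor of secretory cells, rose from 10.4, 9.93 and 10.7 CPM in the control samples to 21.9, 22.1 and 19.9 CPM in the knockdown samples. The log2 fold change was 1.04 (SE 0.083, edgeR adjusted p = 6.7e-05), opposite in direction to the called genes among the 10. ATF6B rose by 0.17 (edgeR adjusted p = 0.038), a call lost without control sample 1 or 3 or any 1 of the knockdown samples (edgeR adjusted p between 0.0715 and 0.127) and also with no filter, the GC offset (0.11), the GC offset with the replicate block (0.11) and the study's criteria.

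In the PERK and ATF4 arm, 9 of 17 genes were lower (52.9%, against 12.4% of all tested genes) and 1 was higher (5.88%, against 10.4%), with a median log2 fold change of -0.27. Without knockdown sample 1, 5 genes were lower. ATF4, the transcription factor translated when eIF2α is phosphorylated, was at 301, 319 and 307 CPM in the control samples and at 238, 253 and 261 CPM in the knockdown samples. It fell by 0.30 on the log2 scale (SE 0.041, edgeR adjusted p = 0.00089). PPP1R15A, encoding the inducible phosphatase subunit GADD34 that reverses eIF2α phosphorylation, fell from 33.7, 32.2 and 31.9 CPM to 22.4, 18.9 and 19.5 CPM (log2 fold change -0.69, SE 0.077, edgeR adjusted p = 0.00034). PPP1R15B, its constitutive counterpart, fell by 0.34 (SE 0.031, edgeR adjusted p = 0.00013).

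DDIT3, which encodes the proapoptotic factor CHOP, was at 19.3 ± 1.18 and 15.8 ± 2.49 CPM (SD, n = 3 each). Its groups overlapped, and the log2 fold change of -0.28 did not pass the test (edgeR adjusted p = 0.11), except without knockdown sample 3 (-0.41, edgeR adjusted p = 0.0251). Without knockdown sample 2 it was -0.18 (edgeR adjusted p = 0.32). CHAC1, a glutathione-degrading enzyme gene induced by ATF4, fell by 0.70 (edgeR adjusted p = 0.032) at levels of 3.22 ± 0.686 and 1.99 ± 0.200 CPM. The CHAC1 call was lost without control sample 3 or any 1 of the knockdown samples (edgeR adjusted p between 0.0664 and 0.119). NUPR1, a stress-induced coregulator, fell by 0.38 (edgeR adjusted p = 0.021), a call lost without control sample 1 or 3 or knockdown sample 1 or 2 (edgeR adjusted p between 0.0532 and 0.0661). VLDLR, a lipoprotein receptor gene, was the 1 higher gene of this list (0.31, edgeR adjusted p = 0.042), and it kept its call in the leave-one-out fits only without control sample 2 (edgeR adjusted p between 0.0737 and 0.13 in the others).

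Among 43 other ER chaperones and folding enzymes, 12 were lower (27.9%, against 12.4% of all tested genes) and 3 higher (6.98%, against 10.4%), with a median log2 fold change of -0.03. The split was 8 lower and 5 higher with scaling by library size alone or with limma on FPKM, and 9 and 7 with the GC offset. The largest fall was in DNAJC3, the gene for the ER cochaperone p58IPK, at 116, 126 and 121 CPM in the control samples and at 81.2, 83.1 and 76.0 CPM in the knockdown samples (log2 fold change -0.60, SE 0.046, edgeR adjusted p = 6.1e-05). MANF, a secreted ER stress factor that binds HSPA5, fell by 0.41 (SE 0.066, edgeR adjusted p = 0.0019), and DNAJB11, the HSPA5 cochaperone ERdj3, by 0.40 (SE 0.042, edgeR adjusted p = 0.00024). FKBP14, a prolyl isomerase gene, fell by 0.37 (edgeR adjusted p = 0.0072). SERPINH1, the collagen chaperone HSP47, rose by 0.34 (SE 0.044, edgeR adjusted p = 0.00063), MOGS, the glucosidase that starts glycan trimming, by 0.34 (edgeR adjusted p = 0.0011) and RCN2, a calcium-binding protein gene, by 0.18 (edgeR adjusted p = 0.0081).

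Among 33 other genes of ER-associated degradation, 10 were lower (30.3%, against 12.4% of all tested genes) and 2 higher (6.06%, against 10.4%), with a median log2 fold change of -0.10. The split was 7 and 3 with library size alone or limma, and 8 and 3 with the GC offset. SELENOS, a membrane protein that recruits the VCP ATPase, fell by 0.39 (SE 0.059, edgeR adjusted p = 0.0014), UBE2J1, an ER ubiquitin-conjugating enzyme, by 0.28 (SE 0.044, edgeR adjusted p = 0.0017) and SEL1L, the adaptor of the HRD1 ligase complex in which HERP sits, by 0.26 (SE 0.038, edgeR adjusted p = 0.0014). TRAM1, a protein of the translocation channel, fell by 0.32 (SE 0.033, edgeR adjusted p = 0.00022). MAN1B1, a mannosidase gene, rose by 0.24 (edgeR adjusted p = 0.0065), and NGLY1, the cytosolic deglycosylating enzyme, by 0.21 (edgeR adjusted p = 0.022). The NGLY1 call was lost without control sample 1 or 3 or knockdown sample 2 or 3 (edgeR adjusted p between 0.075 and 0.0918).

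Among 36 genes of ER translocation and transport, 9 were lower (25%, against 12.4% of all tested genes) and 6 higher (16.7%, against 10.4%), with a median log2 fold change of -0.03. The split was 7 and 9 with library size alone or limma, and 7 and 8 with the GC offset. Those lower included SEC62 of the translocation channel (-0.31, SE 0.040, edgeR adjusted p = 0.00065), SAR1A of the COPII coat (-0.27), the signal recognition receptor subunit gene SRPRB (-0.26) and SSR3 of the translocon-associated complex (-0.26). Those higher included the signal peptidase genes SEC11C (0.26, edgeR adjusted p = 0.037) and SPCS1 (0.20, edgeR adjusted p = 0.014), the signal recognition particle gene SRP68 (0.21) and SEC24C of the COPII coat (0.17). The SEC11C call was lost without control sample 1 or 3 or knockdown sample 1 or 2 (edgeR adjusted p between 0.0675 and 0.136), and that of SPCS1 without knockdown sample 2 (edgeR adjusted p = 0.0681). The count of higher genes was 3 without control sample 3 and 2 without knockdown sample 2.

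**Figure D5:**
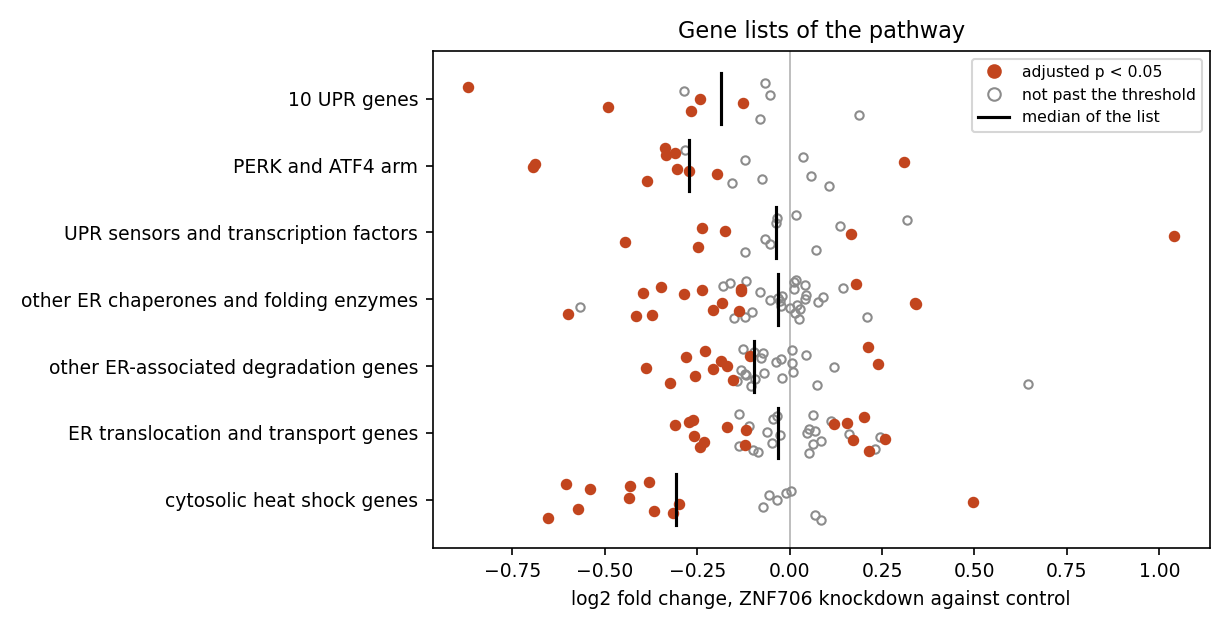
Log2 fold change (knockdown against control) of each tested gene in the 10 genes and in 6 other lists. Filled points have an adjusted p below 0.05 in edgeR's test, open points do not, and vertical bars are list medians. The medians run from -0.31 for the cytosolic heat shock genes to -0.03 for the transport genes and the other chaperones.

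Cytosolic heat shock genes, which answer unfolded proteins outside the ER under the factor HSF1, were read for comparison. Of 18 genes, 10 were lower (55.6%, against 12.4% of all tested genes) and 1 higher (5.56%, against 10.4%), with a median log2 fold change of -0.31. The split was 10 and 3 with library size alone. HSPA8, the constitutive cytosolic HSP70, was at 3474, 3721 and 3806 CPM in the control samples and at 2202, 2316 and 2481 CPM in the knockdown samples (log2 fold change -0.65, SE 0.046, edgeR adjusted p = 4.2e-05). The inducible HSP70 genes HSPA1A (-0.61, edgeR adjusted p = 0.0061) and HSPA1B (-0.57, edgeR adjusted p = 0.0071) fell also, but they are near-identical copies whose reads the counting could split, and their separate values are uncertain. CHORDC1, an HSP90 cochaperone gene, fell by 0.54 (edgeR adjusted p = 4.7e-05). HSPB1, which encodes the small heat shock protein HSP27, rose from 169 ± 13.8 to 239 ± 9.40 CPM (SD, n = 3 each; log2 fold change 0.50, SE 0.056, edgeR adjusted p = 0.00035).

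The labelled cell type was checked against 12 hepatocellular markers. KRT8 (1537 ± 39.5 and 1543 ± 61.0 CPM in the control and knockdown samples) and KRT18 (963 ± 46.9 and 898 ± 11.1 CPM) were high. The liver-defining genes were far below the keratins, with ALB at 10.5 ± 6.47 and 6.60 ± 4.05 CPM, AFP at 2.96 ± 1.59 and 1.82 ± 1.21 CPM and HNF4A at 1.16 ± 0.757 and 0.524 ± 0.152 CPM. Of 11 tested markers, APOB and SERPINA1 fell (18.2%, against 12.4% of all tested genes) and none rose (against 10.4%), 10 had a negative log2 fold change and the median was -0.67. The summed level was 2529 ± 97.5 and 2457 ± 63.5 CPM, nearly all of it from KRT8 and KRT18.

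Some markers of other cell types were called, in lists too short for their shares to be set against the 12.4% lower and 10.4% higher of all tested genes. Of 5 tested fibroblast markers, COL1A1 (0.20) and PDGFRB (0.68) rose, and the other 3 had negative log2 fold changes that did not pass the test, with a list median of -0.04. DCN was below 1 CPM in both group means, and the summed level of the list was 84.0 ± 4.63 and 95.9 ± 1.04 CPM. Of 3 tested markers of white blood cells, CD68 rose (0.64) and the other 2 had negative log2 fold changes that did not pass the test, with a list median of -0.49. CD68 made up most of the summed level of 27.7 ± 0.628 and 41.9 ± 1.895 CPM, and PTPRC was at 0.0850 ± 0.0737 CPM in the control samples and at 0 in the knockdown samples. Of 2 tested endothelial markers, CDH5 fell (-0.70), VWF was below 1 CPM in both groups, and the summed level was 14.97 ± 1.36 and 12.3 ± 1.00 CPM. The part of these markers in the changes of the unfolded protein response genes was not tested.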

How the data were processed

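Total RNA of LM3 cells was sequenced on an Illumina NovaSeq system. Per the labels and the study's methods, reads were trimmed with cutadapt 1.9, checked with FastQC and mapped to GRCh38 with HISAT2. The counting program, annotation release and handling of strand are not given in the sources used here, and reads of overlapping genes on opposite strands may therefore be mixed. The authors deposited 1 table with raw counts per gene, which are whole numbers without normalization, and FPKM values, which the authors divided by gene length and library size. Coordinates are those of the deposited table. No column of per-sample values was left unused.

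Counts of 3 control and 3 knockdown samples entered edgeR 4.0.16 (R 4.3.3). Low genes were removed by filterByExpr, TMM gave the scaling, and the quasi-likelihood test (glmQLFit, glmQLFTest) had group as its single term, with Benjamini-Hochberg adjustment over 18390 genes. Standard errors were obtained from the log2 fold change and its F statistic, and 95% intervals from the t distribution. CPM values are scaled by TMM. The samples of a group differed by more than counting noise (mean chi-square per gene between 12.8 and 22.2).

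Named were the 10 genes, ZNF706, EIF2AK3, ATF6, ATF4 and DDIT3, and from each other list up to 4 called genes per direction by size of the log2 fold change. The 10 genes and the lists were chosen with earlier results of these data known, so they are no independent support. No test over a list was made, and the shares of its genes called stand beside those over all tested genes. Promoter windows came from RefSeq (GRCh38.p14). Alternatives were DESeq2 1.42.0, its size factors in edgeR, scaling by library size alone, dropping the filter, a minimum mean count of 50, limma 3.58.1 on log2(FPKM + 0.1) where the mean reached 1 FPKM, a replicate block, an offset for the GC content of the longest GENCODE 29 transcript, both together, the study's criteria, and leaving out each sample.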

Additional observations from a re-analysis of the deposited data

How the results depend on the processing

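HERPUD1, XBP1, ATF4, ZNF706 and DNAJC3 kept their direction and their side of the threshold under each alternative, and HSPA5 and HSP90B1 did so except under the study's criteria, which require a log2 fold change of 0.3 and were applied to the edgeR fit. SDF2L1 changed sign with scaling by library size alone (0.0015). EDEM1 lost its call with library size alone (-0.072), limma on FPKM (-0.076) and the GC offset (-0.095). It also lost its call with no filter, with the GC offset and replicate block together, and under the study's criteria. Besides the leave-one-out losses given in the text, CHAC1, NUPR1, VLDLR, NGLY1, SEC11C and SPCS1 lost their calls without a filter (edgeR adjusted p between 0.0508 and 0.0803), and VLDLR also with limma (0.0701) and the replicate block (0.0615). Under the study's criteria, NFYA, YY1, RCN2, UBE2J1, SEL1L, MAN1B1 and NGLY1 also lost their calls. So did SAR1A, SRPRB, SSR3, SEC11C, SRP68, SPCS1 and SEC24C. Beyond this the cause of a moved value was not tested.

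Over all genes, the lower calls were 1518 with library size alone and 1081 with the study's criteria, and the higher calls 1253 without a filter. With the study's criteria 2 of the 10 genes were lower, as were 1 sensor or transcription factor, 6 other chaperones, 2 degradation genes and 1 transport gene, and the higher calls were 1 sensor or transcription factor, 0 degradation genes and 0 transport genes. Without a filter the higher calls were 1 sensor or transcription factor, 0 genes of the PERK and ATF4 arm, 1 degradation gene and 2 transport genes. The PERK and ATF4 arm had 0 higher calls with limma, 0 with the replicate block, and 2 with the GC offset, alone or with the block. The other chaperones had 13 lower and 5 higher calls with DESeq2, 8 and 5 with library size alone, 8 and 5 with limma, and 9 and 7 with the GC offset, alone or with the block. The heat shock genes had 10 lower calls in both and 3 higher calls with library size alone and 2 with limma.

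When 1 sample was left out, all genes gave 1500 to 1939 lower and 1148 to 1485 higher calls, both lowest without knockdown sample 2. The 10 genes gave 4 to 5 lower and 0 higher calls. The range of lower and of higher calls was 3 to 4 and 1 to 2 for sensors and transcription factors, 5 to 8 and 0 to 1 for the PERK and ATF4 arm, 8 to 12 and 3 to 4 for the other chaperones, 7 to 11 and 1 to 2 for degradation, 7 to 10 and 2 to 5 for transport, and 10 to 10 and 1 to 2 for the heat shock genes. ZNF706 was between -0.77 and -0.70 on the log2 scale.

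The replicate numbers did not pair the samples, since same-numbered samples had correlations of their deviations of 0.034, -0.036 and -0.016. With the replicate block, 2394 genes were lower and 1967 higher, and no call among the 10 genes changed. The p-values rest on the spread among 3 samples per group, and an exact permutation test of 3 against 3 could not go below p = 0.1. Processed copies named for HSPA5, HSP90B1 and XBP1 held counts equal to at most 0.16% of those of their gene.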

Other observations

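The deposited table assigns genes to KEGG and GO terms, whose membership was not chosen here but overlaps the lists above. In the KEGG term for protein processing in the ER, without the 10 genes, 146 genes were tested, of which 49 were lower and 13 higher, with a median log2 fold change of -0.09. In the GO term for the IRE1-mediated unfolded protein response, 48 other genes were tested. Of these, 14 were lower (29.2%, against 12.4%) and 4 higher (8.33%, against 10.4%). In the GO term for the response to ER stress, 67 other genes were tested. Of these, 23 were lower (34.3%, against 12.4%) and 4 higher (5.97%, against 10.4%). These terms share genes with each other and with the lists, and 64 of the 146 KEGG genes lay outside the lists.

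Of the KEGG term's 64 tested genes outside the lists, 20 were lower (31.2%, against 12.4% of all tested genes) and 6 higher (9.38%, against 10.4%), and 4 are given here, chosen after their values were seen. TRAF2, which encodes an adaptor that IRE1 is known to bind, was at 55.6 ± 1.13 CPM in the control samples and 46.4 ± 1.32 CPM in the knockdown samples (SD, n = 3 each; log2 fold change -0.26), and the kinase gene MAPK8 at 45.7 ± 2.94 and 36.0 ± 2.31 CPM (-0.35, and -0.23 with the GC offset, which passed). BAK1, which encodes a pore-forming protein of apoptosis, was at 44.1 ± 0.443 and 32.6 ± 2.14 CPM (-0.44). UBE2D4, a ubiquitin-conjugating enzyme gene, had the largest rise of the 6 (0.37, edgeR adjusted p = 0.036), a call lost without a filter, with the GC offset and replicate block together, and without control sample 2 or 3 or knockdown sample 2 or 3 (edgeR adjusted p between 0.0555 and 0.118).

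Among the genes outside the 10 with an ERSE or ERSE-II in a promoter window, ZNF143, which encodes a zinc finger transcription factor, had the largest change. It was at 55.7, 63.1 and 68.3 CPM in the control samples and at 37.4, 34.3 and 40.5 CPM in the knockdown samples, and it fell by 0.74 on the log2 scale (SE 0.080, edgeR adjusted p = 0.00029). It was likewise chosen after its value was seen.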
